A study of Mus musculus with 9 samples.

Results

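Genomic imprinting is the expression of a gene from the copy inherited from 1 parent, set by DNA methylation laid down in the egg or sperm. Imprinted genes lie in clusters, called domains, that often hold genes read from the maternal copy beside genes read from the paternal copy, and many of them act on growth before birth. Several are also abundant in adult endocrine cells, and the dose of some of them affects beta cell mass and insulin secretion. The counts described here are summed over both alleles, so they give the level of each gene and not the parent it came from.

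The 10 imprinted genes described are Nnat, Peg3, Rasgrf1, Plagl1, Igf2 and Dlk1, usually read from the paternal copy, and Grb10, Cdkn1c, H19 and Meg3, usually read from the maternal copy. They were taken by symbol from a deposited table of read counts with 52459 gene symbols, and all 10 were found. The table covers 9 RNA sequencing libraries of islets of Langerhans, the hormone-secreting cell clusters of the pancreas, from mice aged 12 weeks. There were 3 libraries each from wild-type (WT) mice, from db/+ mice with 1 copy of the db mutation, and from db/db mice with 2 copies. The db allele disrupts Lepr, the leptin receptor gene, in the whole body, and db/db mice are obese and diabetic. All groups carry the same strain label, and the labels do not give the sex or whether islets of several mice were pooled. No treatment is named.

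Total counts were 8860024 to 11734886 per library, and 16826 genes passed a filter on low counts and were tested, 9 of the 10 imprinted genes among them (all but H19). Levels are in CPM, the read count scaled to a common depth by the normalised library size, in the order of libraries 1, 2 and 3 of a group. Fold changes are on the log2 scale with their standard error. The quasi-likelihood test of edgeR was used, p values were adjusted by Benjamini and Hochberg's method over all tested genes, and a gene passed at an adjusted p below 0.05. The labels do not say that the libraries of a group came from separate animals, so the p values measure the spread between these libraries only. The summed CPM of 10 beta cell markers, the insulin genes among them, ran from 83874 to 125208 over the 9 libraries, and none of the 10 was at 0 throughout. Xist and Y-linked RNA occurred side by side in WT 1, WT 3 and db/db 1, Y-linked RNA nearly alone in WT 2 and the db/+ libraries, and Xist nearly alone in db/db 2 and db/db 3. Sex makeup and genotype were thus partly confounded. The 2 genes Gm42418 and Lars2, which collect ribosomal reads, took 17.9%, 13.3% and 0.0558% of the counts in db/db. They took 1.89% to 2.58% in WT and 0.0220% to 0.0237% in db/+. The 11 stellate cell, fibroblast and pericyte markers had a summed level of 242 to 339 CPM (WT), 240 to 357 CPM (db/+) and 766 to 2001 CPM (db/db). Markers of acinar cells, the enzyme-secreting cells around the islets, summed to 4954 to 9504 CPM (WT), 11389 to 25858 CPM (db/+) and 13192 to 36155 CPM (db/db). Markers of duct cells summed to 268 to 277, 275 to 299 and 663 to 1196 CPM in the same order of groups, and those of macrophages to 81.2 to 103, 79.6 to 102 and 142 to 197 CPM. The 7 alpha cell markers summed to 10684 to 19227, 17038 to 20494 and 10010 to 11508 CPM. Of these 7, 5 passed as lower and 2 as higher in db/db against WT, beside 19.9% and 21.8% of all tested genes.

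In db/db against WT islets, Nnat, Peg3, Rasgrf1 and Plagl1 fell, and none of the 9 tested genes rose. The count of 4 called among 9 stands beside 41.7% called among all tested genes in this comparison, and the 4 lower calls beside 19.9% called lower. The 4 belong to the 6 paternally expressed genes, and the 3 tested maternally expressed genes did not pass. The median log2 fold change of the 9 was -0.32, against 0.01 over all tested genes. These 4 were also the ones whose db/db libraries were all below the WT libraries, beside 51.5% of all tested genes without overlap (25.3% with db/db lower). In db/db against db/+, 3 fell (Nnat, Peg3 and Rasgrf1) and 1 rose (Dlk1), beside 40.3% of all tested genes called (20.6% higher and 19.7% lower), with a median of -0.29 against 0.01. There 5 of the 9 were lower and 1 higher without overlap, beside 52.2% of all tested genes (26.0% lower). In db/+ against WT 0 of the 9 passed with edgeR, beside 1.43% of all tested genes called (0.606% higher and 0.820% lower). Of the 9, 3 (Dlk1, Nnat and Plagl1) had an unadjusted p below 0.05 there, as 15.6% of all tested genes did, and 1 (Nnat) passed with the DESeq2 test and 0 with limma-voom. In the same comparison 3 of the 9 were lower and 1 higher without overlap, beside 22.5% of all tested genes (10.4% lower). Without the 3 libraries that held both Xist and Y-linked RNA, 1 WT library is left, assumed to vary like the rest. Those left held Y-linked RNA nearly alone in WT and db/+ and Xist nearly alone in db/db, so sex makeup and genotype were fully confounded. In this fit the log2 differences of db/db from WT were -3.46 (Nnat), -0.46 (Peg3), -0.71 (Rasgrf1) and -0.48 (Plagl1). From db/+ they were -3.20, -0.43 and -0.73 for the first 3. Dlk1 (2.65), Meg3 (0.26) and H19 (6.95) were higher in db/db than in db/+ in this fit. H19, which met the filter there only through its db/db counts, was also 3.81 higher than in WT. The 2 comparisons with db/db share the db/db libraries, so their values are given side by side and are not independent.

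**Figure D1:**
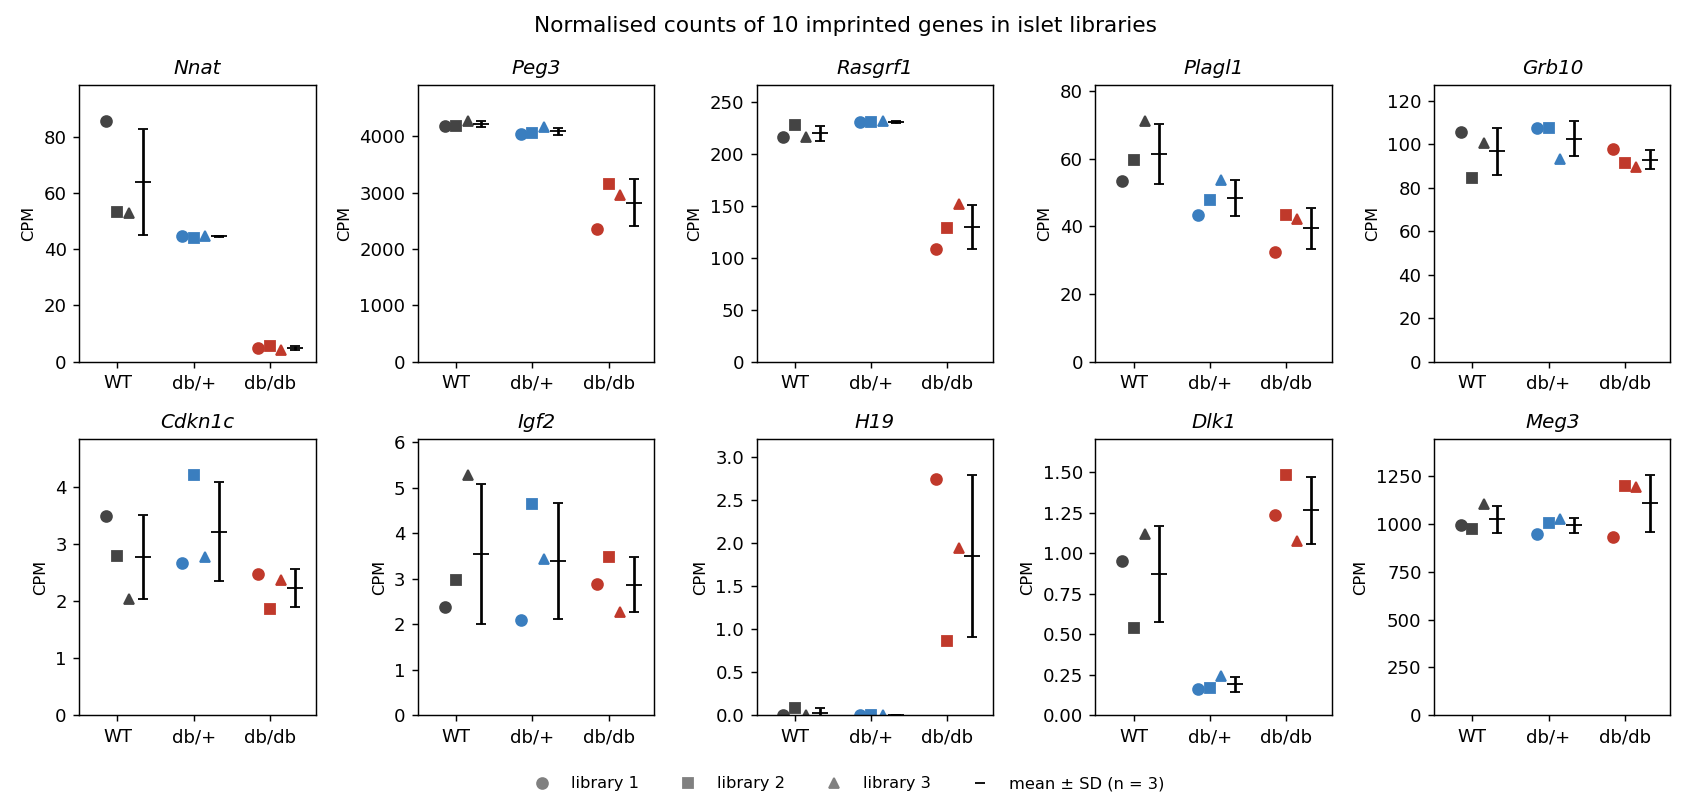
Normalised counts (CPM, linear axes from 0) of the 10 imprinted genes in the 9 libraries, by group, with the mean ± SD (n = 3). Nnat lay between 4.09 and 5.70 CPM in db/db and at 44.1 CPM or more in all other libraries, while H19 was found almost only in db/db.

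Nnat encodes neuronatin, a small membrane protein of the endoplasmic reticulum that in beta cells binds the signal peptidase complex, the enzyme that cuts the signal peptide from preproinsulin. The WT libraries held 85.5, 53.4 and 52.7 CPM of it, the db/+ libraries 44.7, 44.1 and 44.7 CPM and the db/db libraries 4.94, 5.70 and 4.09 CPM. Every db/db library was far below every other one, and WT 1 stood above the remaining 5. The log2 difference was -3.71 ± 0.22 against WT, a 13.1-fold fall (adjusted p = 6.30e-07), and -3.19 ± 0.23 against db/+, a 9.10-fold fall (adjusted p = 2.08e-06). By fold change Nnat ranked 22 from the lowest of 16826 genes against WT and 33 against db/+. Both falls passed with each of 9 libraries left out and under each of 15 other alternatives. In bulk RNA, fewer cells that express a gene and less RNA of it per cell cannot be told apart, here and below. Of the 10 beta cell markers, 7 fell and 1 rose against WT (beside 19.9% and 21.8% of all tested genes), with a median of -1.32, while their summed level in db/db (91969 to 125208 CPM) overlapped that in WT (83874 to 121523 CPM). The part of cell makeup or cell state in the fall of Nnat was not tested. The level in db/+ was lower than in each WT library, but the difference of -0.52 ± 0.17 did not pass (adjusted p = 0.164, and 0.110 to 0.404 when single libraries were dropped). It passed with the DESeq2 test (adjusted p = 0.0480) and with no low-count filter (adjusted p = 0.0302), and without the libraries that held both Xist and Y-linked RNA it was -0.26 (adjusted p = 0.464). Nnat lies on chromosome 2 (157560078 to 157562525, GRCm38), inside the span of Blcap (157556362 to 157566361). Blcap, itself imprinted in brain, fell by 0.48 ± 0.10 against WT (adjusted p = 0.00143), and with the stellate markers as a covariate the difference was -0.41 (adjusted p = 0.224). The strand setting of the counting is not given, so the 2 genes may share counts.

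Peg3 encodes a large zinc finger protein that acts in the brain and other tissues on growth and maternal behaviour. It was the most abundant of the 10 per kilobase of exon in WT. Its level was 4183, 4184 and 4274 CPM in the WT libraries, against 4053, 4060 and 4160 CPM in the db/+ and 2361, 3160 and 2958 CPM in the db/db libraries. The db/db libraries were lower than all others without overlap, db/db 1 the lowest. The log2 difference was -0.58 ± 0.11 against WT (adjusted p = 7.14e-04) and -0.53 ± 0.11 against db/+ (adjusted p = 0.00132), and db/+ differed from WT by -0.04 ± 0.11 (95% interval -0.27 to 0.18).

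Rasgrf1 encodes an exchange factor that turns on Ras in response to calcium and calmodulin. WT libraries held 216, 228 and 216 CPM, db/+ libraries 231, 231 and 232 CPM, and db/db libraries 109, 128 and 152 CPM. The WT and db/+ libraries lay close together and the db/db libraries were all lower. The difference of Rasgrf1 was -0.76 ± 0.10 against WT (adjusted p = 3.80e-05) and -0.83 ± 0.10 against db/+ (adjusted p = 1.82e-05). The db/+ level was 0.07 ± 0.10 above WT, with a 95% interval from -0.14 to 0.28.

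Plagl1 (also called Zac1) encodes a zinc finger transcription factor that limits cell division, and gain of its human counterpart causes a transient diabetes of the newborn. In WT the libraries gave 53.5, 59.5 and 71.1 CPM, against 43.42, 47.8 and 53.8 CPM for db/+ and 32.5, 43.36 and 42.2 CPM for db/db. The db/+ libraries lay between the other groups, overlapping WT and just above the highest db/db library. The log2 difference in db/db was -0.63 ± 0.13 against WT (adjusted p = 0.00202). Against db/+ the difference of -0.29 ± 0.13 did not pass (adjusted p = 0.0948). It passed on library totals alone, with no low-count filter and with Y-linked RNA as a covariate, and had the opposite sign, 0.31, with the stellate marker mean as a covariate. In db/+ against WT the difference was -0.34 ± 0.13 (adjusted p = 0.215, and 0.0245 with no low-count filter).

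The calls of Peg3, Plagl1 and Rasgrf1 changed when markers of other cells were added as a covariate, as did those of most called genes. Against WT 7018 of all 16826 tested genes passed without a covariate. With the acinar markers 3438 passed and with the stellate markers 1625, so a lost call is not particular to these genes. With the mean log2 CPM of the stellate cell, fibroblast and pericyte markers as a covariate, the difference from WT was -0.25 for Peg3 (adjusted p = 0.445), -0.03 for Plagl1 (adjusted p = 0.939) and -0.60 for Rasgrf1 (adjusted p = 0.0659), and Nnat alone passed. With the acinar marker mean as a covariate Peg3 (-0.38, adjusted p = 0.114) and Plagl1 (-0.46, adjusted p = 0.164) lost the call and Rasgrf1 kept it. Against db/+, Peg3 lost the call with the stellate markers (-0.20, adjusted p = 0.554) and with the first letter of the sample title as a covariate (-0.56, adjusted p = 0.0866). The stellate marker mean was 4.54 to 6.27 log2 CPM in db/db and 2.69 to 3.72 in the other libraries, so its part and that of genotype cannot be told apart.

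The promoter windows of these 4 genes are shown because the methylation that sets imprints sits on CG pairs, in many domains at or near a start site. Each window runs from 250 bases before to 50 bases after a RefSeq start site (GRCm38.p6), read 5′ to 3′ on the gene's strand, with every CG in capitals. The CG motif reads the same on both strands, and 94.6% of 32851 windows of the same length hold at least 1.
Nnat: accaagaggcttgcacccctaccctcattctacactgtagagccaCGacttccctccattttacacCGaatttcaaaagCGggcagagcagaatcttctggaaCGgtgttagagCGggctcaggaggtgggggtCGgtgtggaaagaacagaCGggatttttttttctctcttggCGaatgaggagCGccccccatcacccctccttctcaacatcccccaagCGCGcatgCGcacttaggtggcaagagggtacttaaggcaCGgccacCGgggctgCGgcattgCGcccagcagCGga
Peg3: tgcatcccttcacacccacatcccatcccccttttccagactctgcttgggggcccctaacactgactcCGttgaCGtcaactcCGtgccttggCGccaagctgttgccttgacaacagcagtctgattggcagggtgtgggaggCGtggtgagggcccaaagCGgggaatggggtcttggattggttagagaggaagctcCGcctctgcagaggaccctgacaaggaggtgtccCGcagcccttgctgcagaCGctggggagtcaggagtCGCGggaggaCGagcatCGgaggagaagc
Rasgrf1: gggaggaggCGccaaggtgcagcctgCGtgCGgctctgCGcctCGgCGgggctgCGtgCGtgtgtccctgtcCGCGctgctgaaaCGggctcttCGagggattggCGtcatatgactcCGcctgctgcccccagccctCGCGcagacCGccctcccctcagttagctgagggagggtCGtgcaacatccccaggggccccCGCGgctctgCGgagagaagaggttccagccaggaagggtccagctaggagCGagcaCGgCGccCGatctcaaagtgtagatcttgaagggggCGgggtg
Plagl1: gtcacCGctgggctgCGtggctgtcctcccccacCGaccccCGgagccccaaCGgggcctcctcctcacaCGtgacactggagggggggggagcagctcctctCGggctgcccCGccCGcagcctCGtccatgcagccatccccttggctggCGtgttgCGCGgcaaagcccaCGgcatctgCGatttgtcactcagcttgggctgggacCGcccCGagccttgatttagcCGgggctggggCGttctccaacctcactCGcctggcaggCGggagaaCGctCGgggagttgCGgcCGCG
Nnat (chr2:157559828-157560127, plus strand) held 17 CG pairs, Peg3 (chr7:6730370-6730669, minus strand) 13, and Rasgrf1 (chr9:89909525-89909824, plus strand) and Plagl1 (chr10:13090582-13090881, plus strand) 26 each. The median window held 7, and 68.6%, 62.1% and 83.1% of windows held fewer than Nnat, than Peg3 and than Rasgrf1 or Plagl1. The range over the 13 windows found for 8 of the 10 genes ran from 1, at a second start of Meg3, to 45 at a start of Grb10. The genes that fell thus had windows inside the range of those that did not pass. No methylation was measured in these libraries, and whether a window covers the imprint of its gene was not checked.

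Grb10 encodes an adaptor protein that binds the insulin and IGF1 receptors and dampens their signal. The WT libraries held 105.5, 84.7 and 100.5 CPM, the db/+ libraries 107.4, 107.4 and 93.4 CPM, and the db/db libraries 97.8, 91.7 and 89.4 CPM. The groups overlapped. The differences were -0.06 ± 0.09 against WT (adjusted p = 0.625, 95% interval -0.26 to 0.14) and -0.14 ± 0.09 against db/+ (adjusted p = 0.229, interval -0.34 to 0.05). On library totals alone the latter became -0.38 (adjusted p = 0.0164), a scale on which all genes shifted by a median of -0.23.

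Cdkn1c encodes p57, an inhibitor of cyclin-dependent kinases whose loss allows beta cells to divide. It was low, with 15 to 50 counts per library. WT libraries held 3.49, 2.80 and 2.03 CPM, db/+ libraries 2.67, 4.22 and 2.77 CPM, and db/db libraries 2.47, 1.86 and 2.37 CPM. WT and db/db overlapped, and the db/db libraries were all below the db/+ ones. Neither difference passed, at -0.32 ± 0.30 (adjusted p = 0.416, interval -0.97 to 0.33) against WT and -0.52 ± 0.30 (adjusted p = 0.179, interval -1.17 to 0.12) against db/+.

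Igf2 and H19 are neighbours on chromosome 7 that share enhancers, Igf2 encoding insulin-like growth factor 2 and H19 a noncoding RNA, and both are strongly reduced after birth in most mouse tissues. Igf2 (142650768 to 142666816, GRCm38) gave 2.38, 2.98 and 5.28 CPM for WT, against 2.10, 4.64 and 3.43 CPM for db/+ and 2.88, 3.47 and 2.26 CPM for db/db. The 3 groups overlapped, and db/db differed from WT by -0.30 ± 0.36 (adjusted p = 0.539, interval -1.07 to 0.48) and from db/+ by -0.24 ± 0.36 (adjusted p = 0.625). H19 (142575530 to 142578146) had 20, 7 and 18 counts in db/db, 0, 1 and 0 in WT and 0 in each db/+ library. In CPM these were 2.74, 0.869 and 1.94 in db/db and 0.0903 in WT 2. Every db/db library was thus above every other, at a level of few reads. Its rate in db/db was 61.2 times that in WT (95% interval 10.4 to 2471, covering counting error only). Against db/+ it was at least 22.2-fold higher, taking 3 counts over the group as the limit that a count of 0 allows and the 45 db/db counts as exact. With the counting error of both groups the lower 95% limit was 17.3-fold. The exact two-sided permutation test gave p = 0.1 for both, the smallest that 3 against 3 libraries can give. H19 missed the low-count filter and so has no test among the 16826 genes. With no such filter its adjusted p in edgeR was 1.51e-08 against WT and 2.01e-10 against db/+, over 29854 genes. Those values use 1043 degrees of freedom, shared over all genes, while the 9 libraries leave 6, so they do not measure the spread between libraries alone. With single libraries left out, H19 met the filter except without db/db 1 or db/db 3. Its adjusted p in edgeR was then 3.21e-04 to 0.00329 against WT and 1.71e-04 to 0.00120 against db/+. H19 met the filter through its db/db counts alone, the group being compared. These adjusted p values therefore add no separate support for its rise. H19 is abundant in mesenchymal cells before birth, and the summed stellate, fibroblast and pericyte markers had the same order in db/db as H19, at 2001, 766 and 1313 CPM. The acinar markers (36155, 13192 and 13837 CPM) and the duct cell markers (1196, 663 and 738 CPM) had this order too. The macrophage markers (197, 155 and 142 CPM) did not. The part of any of these cells in the H19 counts was not tested.

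Dlk1 and Meg3 share a domain on chromosome 12, where the paternal copy gives Dlk1, a membrane protein related to the Notch ligands, and the maternal copy gives the noncoding RNAs Meg3, Rian and Mirg. Dlk1 (109452485 to 109463336) gave 12, 6 and 11 reads for WT, against 2, 2 and 3 for db/+ and 9, 12 and 10 for db/db. The normalised levels were 0.952, 0.542 and 1.12 CPM for WT, against 0.162, 0.169 and 0.245 CPM for db/+ and 1.23, 1.49 and 1.08 CPM for db/db. The db/+ libraries lay below all others, and WT overlapped db/db. Dlk1 was 2.64 ± 0.49 higher in db/db than in db/+ (adjusted p = 8.47e-04), a count ratio of 6.56 (95% interval 2.83 to 17.6, counting error only). This call ended with the first letter of the sample title (2.09, adjusted p = 0.102) or the stellate marker mean (3.005, adjusted p = 0.0557, a difference no smaller than without it) as a covariate. All db/+ titles open with G and all db/db titles with H, while WT has both. The db/db against WT difference of Dlk1 was 0.54 ± 0.40 (adjusted p = 0.299, interval -0.32 to 1.39). In db/+ against WT the difference was -2.11 ± 0.50 (adjusted p = 0.0556, and 0.0513 to 0.241 when single libraries were dropped, and 0.0387 with no low-count filter).

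Meg3 (109540996 to 109571729) was abundant. WT libraries held 993, 974.5 and 1104 CPM, db/+ libraries 948, 1004 and 1023 CPM, and db/db libraries 933, 1195 and 1190 CPM. Within db/db it was lowest in db/db 1, below every WT and db/+ library, while db/db 2 and db/db 3 were above them all. The differences were 0.11 ± 0.10 against WT (adjusted p = 0.410, interval -0.11 to 0.33) and 0.16 ± 0.10 against db/+ (adjusted p = 0.248). Without db/db 1 the latter was 0.27 and passed (adjusted p = 0.0235). The sign of both turned on library totals. Rian (0.11 ± 0.12, adjusted p = 0.469) and Mirg (-0.18 ± 0.11, adjusted p = 0.211) did not pass against WT either. Rtl1 and Dio3, the other protein genes of the domain, had at most 1 count in any library.

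**Figure D2:**
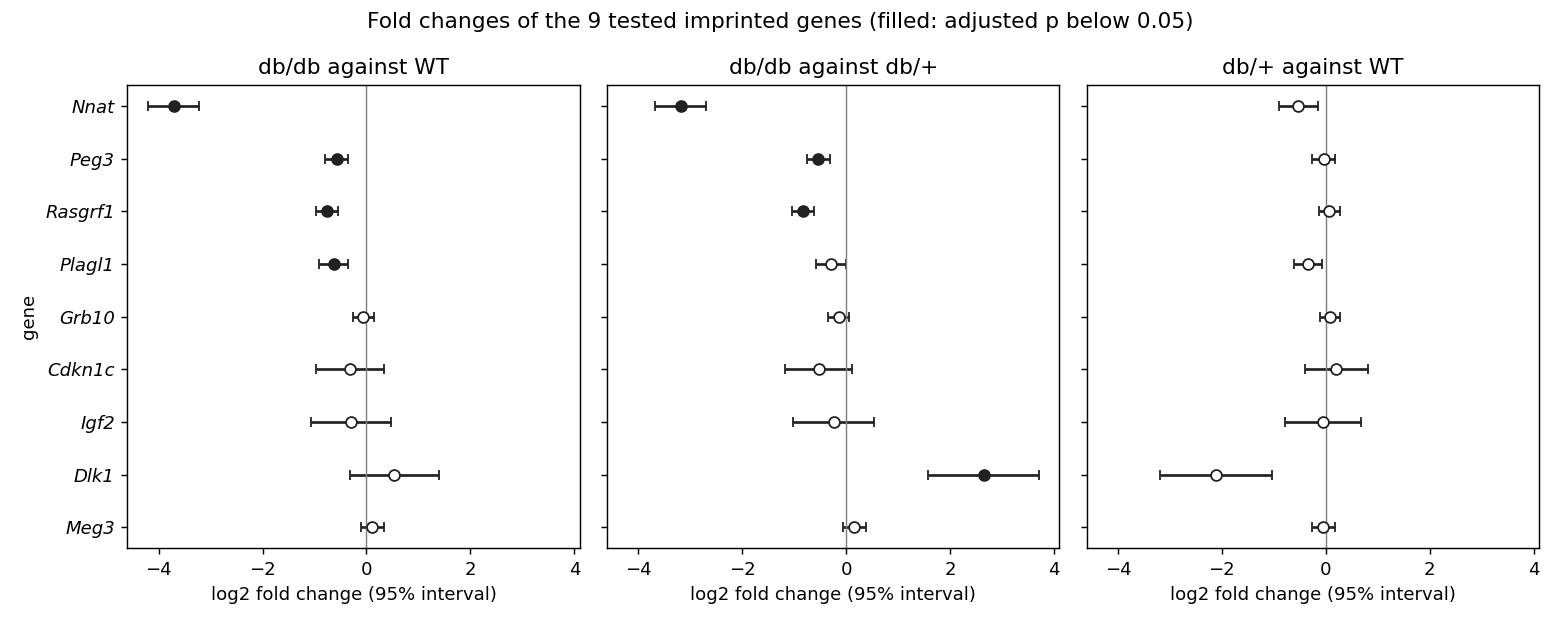
Log2 fold changes of the 9 tested imprinted genes in the 3 comparisons, with 95% intervals. Filled points passed at an adjusted p below 0.05. Nnat was the farthest from 0 in both db/db comparisons, Dlk1 was higher in db/db than in db/+, and no point is filled in db/+ against WT.

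Per kilobase of exon, the order in WT was Peg3 (316 ± 3.94 CPM per kb), Meg3 (56.6 ± 3.86), Rasgrf1 (46.6 ± 1.496), Nnat (34.9 ± 10.3), Grb10 (10.6 ± 1.19), Plagl1 (8.42 ± 1.23), Cdkn1c (1.44 ± 0.378), Igf2 (0.646 ± 0.279), Dlk1 (0.154 ± 0.0524) and H19 (0.0127 ± 0.0220), each as mean ± SD with n = 3. The WT ranges of Rasgrf1 and Nnat overlapped, as did those of Grb10 and Plagl1, and the other neighbours in this order did not overlap. In db/db Nnat fell below Grb10 and Plagl1, to 2.69 ± 0.439 CPM per kb against 10.1 ± 0.475 and 5.40 ± 0.818, and H19 (0.780 ± 0.397) stood above Dlk1 (0.224 ± 0.0365). These levels use exon lengths of another annotation, so a gene whose transcripts differ between annotations would be misplaced.

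The 18 named neighbours of the 10 genes in their domains did not move one way. Of 15 tested, 6 rose and 4 fell in db/db against WT, and 5 rose and 3 fell against db/+, beside 41.7% and 40.3% of all tested genes called. In the Peg3 domain both tested neighbours fell with Peg3 against WT, Zim1, a zinc finger gene of the maternal copy (-1.26 ± 0.15, adjusted p = 7.27e-05), and Usp29, a ubiquitin protease gene (-0.45 ± 0.08, adjusted p = 8.88e-04). With the stellate markers as a covariate neither passed, Zim1 at -1.05 (adjusted p = 0.0580) and Usp29 at -0.29 (adjusted p = 0.324), and without the 3 libraries that held both Xist and Y-linked RNA the difference of Zim1 was -0.77. Zim1 gave 87.8, 59.6 and 94.8 CPM for WT, against 64.5, 65.05 and 69.1 CPM for db/+ and 30.5, 36.9 and 33.4 CPM for db/db, with no overlap between db/db and the rest. Around Cdkn1c, the long noncoding RNA Kcnq1ot1 fell by 0.55 ± 0.17 against WT (adjusted p = 0.0240), but db/db differed from db/+ by 0.08 ± 0.17 (adjusted p = 0.728), and db/+ from WT by -0.63 ± 0.17 (adjusted p = 0.107). Against WT the transporter gene Slc22a18 rose by 2.07 ± 0.45 (adjusted p = 0.00226), from 0.43 to 1.89 CPM on average. The tetraspanin gene Cd81 (0.45 ± 0.13), the lipid transfer gene Osbpl5 (0.37 ± 0.10) and the histone chaperone gene Nap1l4 (0.30 ± 0.10) rose too, and Kcnq1 and Tssc4 did not pass. Kcnq1 rose against db/+ (1.22 ± 0.39, adjusted p = 0.0309), where Cd81 did not pass (0.25, adjusted p = 0.144). Phactr2 beside Plagl1 (0.44 ± 0.14, adjusted p = 0.0220) and Ddc beside Grb10 (0.26 ± 0.08, adjusted p = 0.0244) rose. On library totals all genes shifted by a median of -0.22 against WT, close to the size of the rise of Ddc. Ins2 beside Igf2 did not pass.

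**Figure D3:**
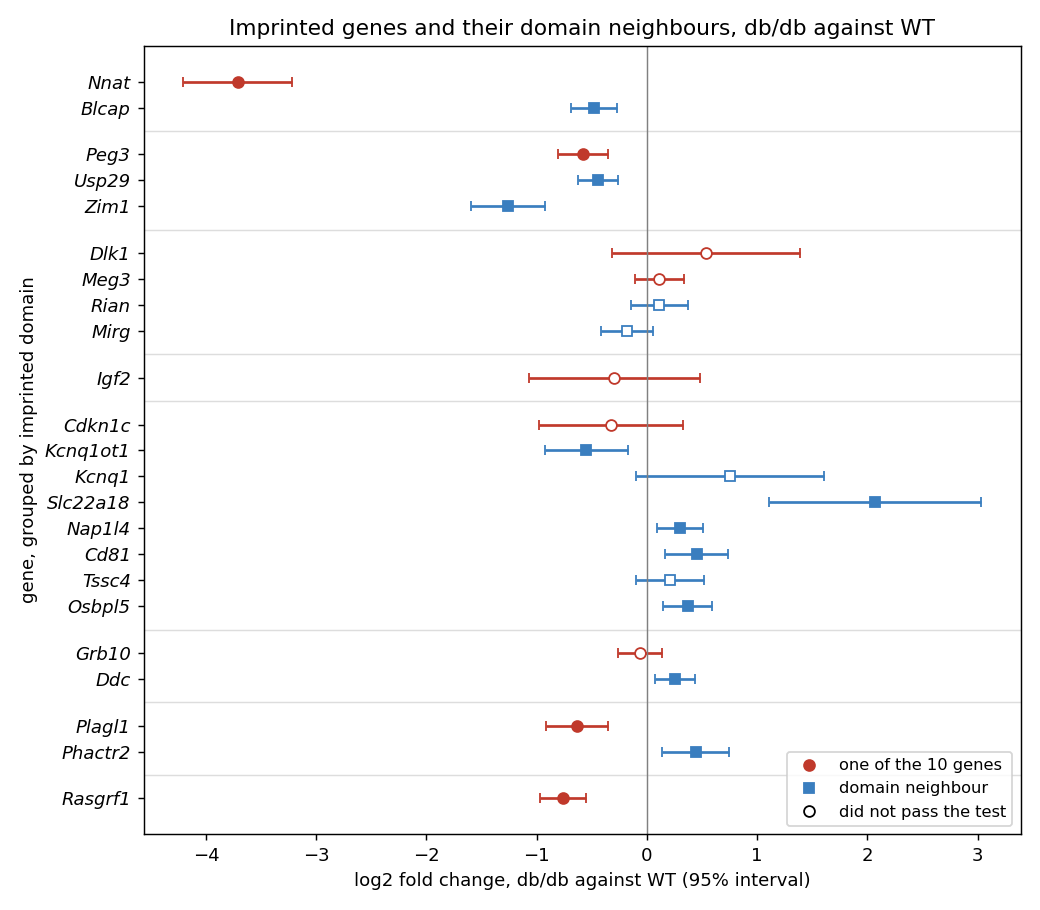
Log2 fold changes with 95% intervals in db/db against WT for the tested imprinted genes (circles) and their domain neighbours (squares), grouped by domain. Open symbols did not pass the test. Peg3, Usp29 and Zim1 lay below 0, the Dlk1 and Meg3 domain held no filled symbol, and the Cdkn1c domain held symbols on both sides. Ins2 is not drawn.

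A wider list of 60 other imprinted genes had 43 tested members. It holds all the domain neighbours above except Ins2, so those genes are counted again here. Of these, 16 rose and 11 fell in db/db against WT (41.7% called among all tested genes), 13 rose and 6 fell against db/+ (40.3%), and 1 rose and 1 fell in db/+ against WT (1.43%). The median log2 fold change was 0.19 against WT and 0.11 against db/+. On library totals the split against WT became 9 higher and 18 lower, beside 2176 higher and 5317 lower of all 16826 tested genes. With the stellate markers as a covariate 4 rose and 2 fell against WT, beside 969 and 656 of all tested genes. The largest falls against WT were those of Peg10 (-1.34 ± 0.36), a gene derived from a retrotransposon, Zim1, the noncoding RNA gene Peg13 (-1.04 ± 0.09), Kcnq1ot1, Zdbf2 (-0.53 ± 0.17) and Impact (-0.52 ± 0.07), a gene that restrains the kinase Gcn2. The largest rises were those of Slc22a18, Inpp5f (1.79 ± 0.09), a phosphoinositide phosphatase gene, Nespas (1.79 ± 0.29), an antisense RNA at Gnas, Gatm (1.41 ± 0.17), an enzyme gene of creatine synthesis, the flippase gene Atp10a (1.26 ± 0.31) and H13 (1.01 ± 0.13), the signal peptide peptidase gene. Inpp5f went from 48.5 ± 4.93 CPM in WT and 44.3 ± 1.21 in db/+ to 168 ± 13.8 CPM in db/db, and H13 from 241 ± 46.7 and 215 ± 20.5 to 487 ± 36.3 CPM. Nespas, Kcnq1ot1 and other antisense RNAs of these domains overlap genes on the other strand and may share their counts. The 2 calls in db/+ against WT were Zrsr1 (0.59) and Ago2 (-0.65), named because they were so few, and 0 genes of the list passed in edgeR without WT 3, any db/+ library, db/db 2 or db/db 3.

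The genes that act with the imprinted proteins, and those that set or keep imprints, were counted in lists. Each count stands beside the same shares of all tested genes, 41.7% called against WT (21.8% higher and 19.9% lower) and 40.3% against db/+ (20.6% higher and 19.7% lower). Neuronatin binds signal peptidase and resembles phospholamban, an inhibitor of the SERCA calcium pumps. Of the 7 tested genes of signal peptidase and these pumps, 5 rose and 2 fell against WT. The 5 were all the subunits of signal peptidase, led by Sec11c, a catalytic subunit (1.83 ± 0.09, adjusted p = 4.33e-09), and Spcs1 (1.04 ± 0.11, adjusted p = 7.46e-06). Sec11c gave 84.5, 104 and 105 CPM for WT, against 109.5, 104 and 108 CPM for db/+ and 344, 345 and 359.9 CPM for db/db, so that it was high where Nnat was low. The pump genes Atp2a2 (-1.04 ± 0.09, adjusted p = 1.16e-06) and Atp2a3 (-0.44 ± 0.12, adjusted p = 0.0115), which fill the endoplasmic reticulum with calcium, fell. Sec11c, Spcs1 and Atp2a2 passed with the stellate markers as a covariate too, and Atp2a3 did not (adjusted p = 0.990). Against db/+, 5 of the 7 rose and 1 fell.

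Of 12 tested Ras exchange factors and Ras genes, 1 rose and 1 fell in each db/db comparison, a smaller share than the 41.7% and 40.3% of all tested genes. The 1 that rose was Rasgrf2, the closest relative of Rasgrf1, with 42.1, 34.0 and 45.6 CPM for WT, against 39.0, 36.0 and 32.6 CPM for db/+ and 234, 242 and 253 CPM for db/db. Its rise against WT was 2.58 ± 0.10 (adjusted p = 1.64e-09), the reverse of Rasgrf1 in the same libraries. The rise passed with the stellate markers as a covariate at a size of 2.56. Sos2 fell by 0.33 ± 0.07 (adjusted p = 0.00255), and with that covariate the difference was -0.28 (adjusted p = 0.284).

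**Figure D4:**
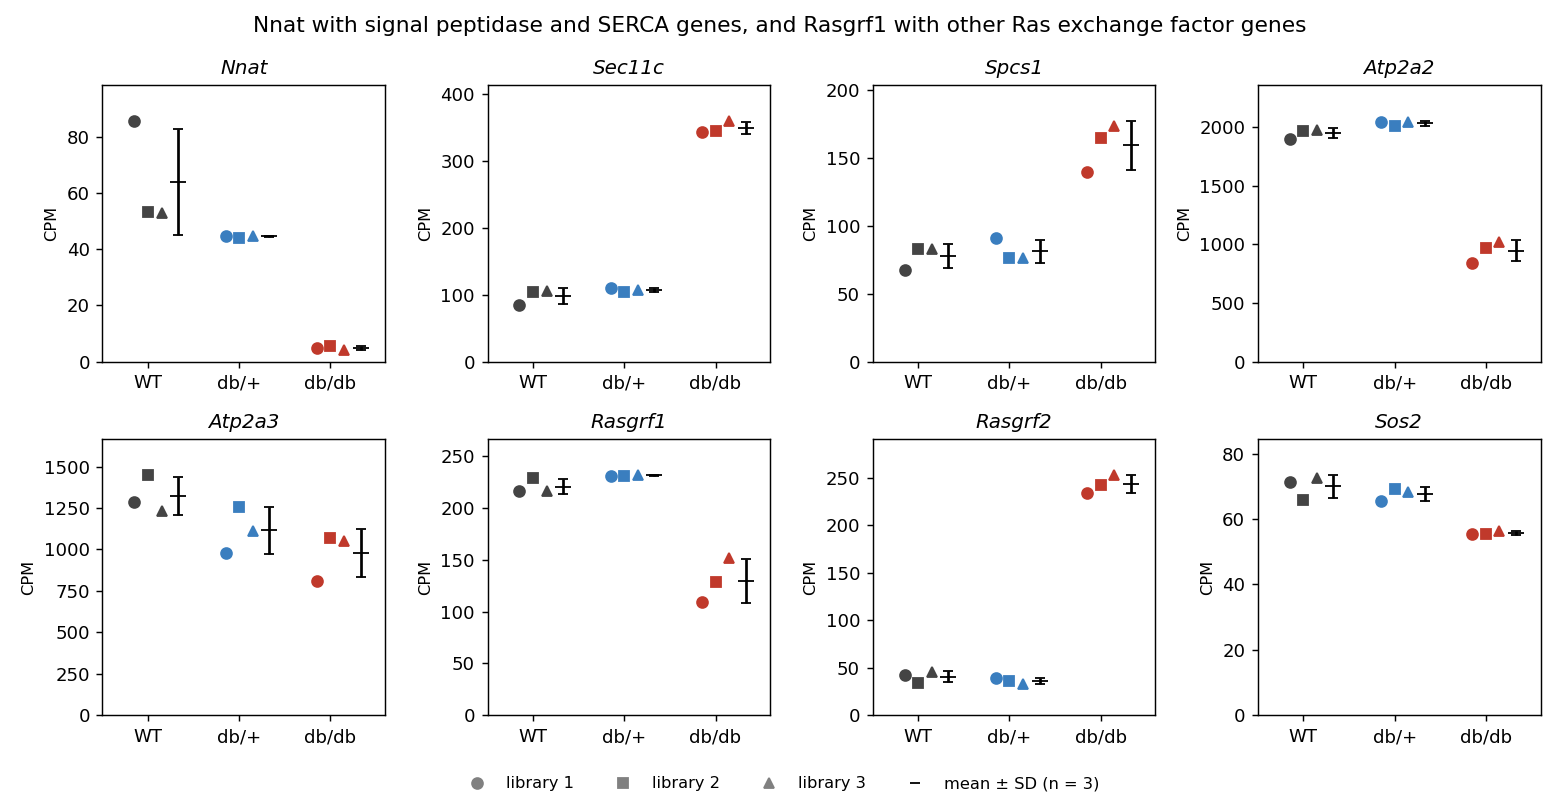
Normalised counts (CPM, linear axes from 0) of Nnat, of the signal peptidase genes Sec11c and Spcs1, of the SERCA genes Atp2a2 and Atp2a3, and of Rasgrf1, Rasgrf2 and Sos2, by group, with the mean ± SD (n = 3). Sec11c and Rasgrf2 lay above all other libraries in each db/db library, and Nnat and Rasgrf1 lower.

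Of 19 tested IGF receptors, binding proteins and substrates, among which Igf2 and Grb10 act, 6 rose and 7 fell against WT, and 6 rose and 6 fell against db/+. Of all tested genes, 21.8% rose and 19.9% fell against WT, and 20.6% rose and 19.7% fell against db/+. Igf1 (2.36 ± 0.51, adjusted p = 0.00427) and the binding protein gene Igfbp4 (2.35 ± 0.61, adjusted p = 0.0200) rose, and the RNA-binding protein gene Igf2bp2 (-2.14 ± 0.19, adjusted p = 1.52e-06) and Insrr, a receptor of the insulin receptor family (-2.06 ± 0.15, adjusted p = 1.21e-06), fell. Of 12 tested Notch receptors, ligands and targets, to which Dlk1 is related, 6 rose and 1 fell against WT, beside the same 21.8% and 19.9%. Heyl (1.64 ± 0.52) and Jag1 (1.36 ± 0.24) had the largest rises, and Notch1 fell by 0.39 ± 0.10. Of the 11 stellate cell, fibroblast and pericyte markers, 8 rose against WT. With those markers as a covariate 0 genes of the IGF list rose and 2 fell, and 0 of the Notch list passed in edgeR. Of all 16826 tested genes, 969 rose and 656 fell in that fit, so calls were few in general. Those markers and genotype cannot be told apart. Of 13 tested D and E cyclins, their kinases and other inhibitors, 3 rose and 3 fell against WT, near the 41.7% of all tested genes, Cdk6 (1.49 ± 0.25) and Ccne1 (1.07 ± 0.25) with the largest rises and Ccnd2 (-1.56 ± 0.12) and Cdkn1b, the relative of Cdkn1c that encodes p27 (-0.39 ± 0.08), with the largest falls. Of the PLAG family, Plag1 fell by 1.12 ± 0.10 (adjusted p = 1.35e-06) and Plagl2 did not pass (-0.58, adjusted p = 0.0774).

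Genes that set or keep imprints were counted as well. Of 14 tested genes of imprint maintenance and DNA methylation, 2 rose and 7 fell against WT, and 2 rose and 8 fell against db/+ (beside 41.7% and 40.3% of all tested genes called). The 2 that rose were Zfp57, a zinc finger protein that guards methylated imprints in the embryo (8.01-fold, adjusted p = 1.64e-04), from 0.520 ± 0.413 CPM in WT to 4.19 ± 0.570 CPM in db/db, and Uhrf1, a partner of the methyltransferase Dnmt1 (1.56 ± 0.36, adjusted p = 0.00365). With the stellate markers as a covariate the difference of Uhrf1 was 1.17 (adjusted p = 0.325). Without the 3 libraries that held both Xist and Y-linked RNA the log2 difference of Zfp57 was 5.27, against the single count of WT 2. The largest falls were those of the methyltransferase gene Dnmt3b (-1.10 ± 0.21, adjusted p = 0.00105) and of Tet1 (-0.93 ± 0.11, adjusted p = 1.31e-05), which oxidises methylated cytosine. Of 11 tested genes of polycomb repressive complex 2, which modifies histones, 0 rose and 4 fell against WT (beside 41.7% of all tested genes called), the largest falls being those of Mtf2 (-0.40 ± 0.13) and Phf1 (-0.37 ± 0.10). With the stellate markers as a covariate 1 gene of the maintenance list rose and 1 fell, and 0 of the polycomb list passed in edgeR. Of all 16826 tested genes 969 rose and 656 fell in that fit. Library totals gave 11 and 6 falls.

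The genes whose pattern over the 9 libraries was most like that of an imprinted gene were found by Pearson's correlation of log2 CPM among 9018 others with a mean of at least 10 CPM. The 9 libraries fall into 3 groups and share their scaling, so a high correlation mainly records group differences in like proportion, whatever their size. The best of so many is high by selection. For Nnat the 3 most alike were Vps13a (r = 0.996), Vwa5b1 (r = 0.995) and Pcdh15 (r = 0.993). For Peg3 they were Fam151a, Vipr1 and Ripply3 (r from 0.991 to 0.996), and for Rasgrf1 Wdr7, Nelfb and Pip5k1c (r from 0.990 to 0.994). For Plagl1 they were Tbc1d22b, Atp6v0a1 and Zer1 (r from 0.970 to 0.971), and for Meg3 Myt1, Golga2 and Kdm5c (r from 0.907 to 0.917). For Dlk1 the closest was Atf7ip (r = 0.974), for Cdkn1c Rtf1 (r = 0.944), for Igf2 Igip (r = 0.892) and for Grb10 Tmem28 (r = 0.872). Against WT, the log2 differences of Vps13a, Vwa5b1 and Pcdh15 were -0.89, -3.69 and -2.11, beside -3.71 for Nnat. Those of Fam151a, Vipr1 and Ripply3 were -3.74, -0.90 and -1.01, beside -0.58 for Peg3.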

How the data were processed

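The authors deposited 1 table of raw read counts per gene symbol, whole numbers without normalisation. The submitters' processing notes name bcl2fastq (2.20.0.422), TopHat2 (2.0.14) and the mm10 build. Per the labels' protocols, RNA was extracted with Trizol and ribosomal RNA removed with a Ribo-Zero Gold kit, so RNA without a poly(A) tail was kept. For the counting program, its annotation and its strand setting, nothing is given in the sources used here. The table has 1 column that matches no sample, which was not used. Samples were grouped by the genotype label, with 3 libraries per group, numbered in accession order, and these numbers pair nothing.

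Genes were kept by filterByExpr (minimum count 10) and scaled by TMM. One robust quasi-likelihood model of the 3 groups over the 9 libraries was fitted in edgeR (4.0.16, under R 4.3.3), with a common biological coefficient of variation of 0.129. Standard errors come from the fold change and the F statistic. The steps were tested on simulated data. Alternatives were 3 other scalings, 2 other filters, DESeq2 1.42.0, limma-voom (limma 3.58.1), other fits and covariates, and each library left out. Leaving out the 3 libraries with both Xist and Y-linked RNA was added after seeing the data, as were the list counts under single alternatives. The genes and lists were chosen with earlier results of these data known. All 10 genes are named. Lists are named by their called members with the largest fold changes against WT, up to 2 each way (6 each way for other imprinted genes), and domain neighbours and the 3 genes of most like pattern by a fixed rule. Positions and promoter windows are RefSeq's (GRCm38.p6, the assembly of mm10). Exon lengths come from GENCODE M1, built on another assembly and used for lengths only. A total of 3 counts is 0.238 to 0.412 CPM. Figures were drawn with matplotlib 3.10.9.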

Additional observations from a re-analysis of the deposited data

How the results depend on the processing

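No paired analysis was possible because the replicate numbers follow accession order and the labels pair no libraries. Over the single imprinted genes, alternatives changed no called direction, and 628 gene values kept their side of the threshold, 10 newly passed and 9 no longer passed. In db/db against WT, 7018 genes passed, and 4425 with the first letter of the title as a covariate, 3438 with the acinar markers, 1625 with the stellate markers, and 4449 without the 3 libraries with both Xist and Y-linked RNA. Of the described genes 2 and 1 passed with the acinar and the stellate markers, and of the other imprinted genes 14 and 6, and 13 without those 3 libraries. In db/db against db/+, 6773 genes passed, and 2033 with the title letter, 1637 with the stellate markers and 4433 with the Y-linked counts. Of the described genes 2 passed with the title letter and 2 with the stellate markers, and of the others 9 and 5. In db/+ against WT, 240 genes passed, and 768 with no low-count filter, 633 with DESeq2, about 1.2e+02 with limma-voom, 46 with the non-robust fit, 45 with the title letter, 88 with the acinar markers, 399 with the Y-linked counts and 97 without the 3 libraries. Of the described genes 3 passed with no filter and 1 with DESeq2. Of the other imprinted genes 4 passed on library totals, 7 with no filter, 5 with DESeq2, 1 with limma-voom, 1 in a fit of 2 groups, 1 with the acinar markers, and 0 with the non-robust fit, the title letter or without the 3 libraries. With single libraries left out, 5774 to 7004 genes passed against WT, 5441 to 6880 against db/+ and 23 to 430 in db/+ against WT (lowest without db/+ 1, highest without db/db 1), and 0 to 5 other imprinted genes in the last. On library totals the split was 2176 higher and 5317 lower against WT, and 2011 and 5265 against db/+. The cause of these moves was not tested. Some settings also bring fewer libraries or a larger number of tested genes, and the part of either was not tested. Depth limited Dlk1, H19, Igf2 and Cdkn1c most.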
